A study of Mus musculus with 2 samples.

Results

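The histone cluster genes are the genes of the count table whose symbols begin with Hist1h or Hist2h, 64 of 31055 genes. They comprised 58 core members (17 H2a, 17 H2b, 12 H3 and 12 H4) and 6 linker members (H1). The members were taken by name alone, and their counts played no part in the choice. Of the 64, 49 reached at least 50 unique transcript counts (UMIs) and are called measured, 12 had 1 to 49 UMIs and 3 had 0 (Hist2h2aa2, Hist1h2bq and Hist1h2ba). The labels give small-intestinal crypts of 1 mouse as the source of the cells, a ChgaCreER-tdTomato::Rosa26LSL-eYFP animal given 1 mg tamoxifen on 5 days. Its Cre recombinase is driven by Chga, the gene of a granule protein of enteroendocrine cells, and cells that recombined, with their descendants, express eYFP. Cells sorted for eYFP and bulk epithelial cells were marked with hashtag antibodies and pooled in 1 gene expression library. Every group described here shares that library and, by the labels, genotype and treatment. Yet 1744 cells showed Xist without Y-linked transcripts, and 252 showed Y-linked transcripts with little Xist. Whether all cells came from 1 animal is therefore not known.

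Histones package DNA. The core proteins H2A, H2B, H3 and H4 form the spool on which DNA is wound, and linker histone H1 binds where DNA enters and leaves it. Most genes of the clusters are transcribed in S phase, when DNA is copied, and their mRNAs end in a stem-loop in place of a poly(A) tail. Some cluster genes can also make polyadenylated mRNA, and the single-cell chemistry used here reads 3′ ends primed at poly(A). A level here is therefore the captured part of each gene's mRNA, and how large that part is was not tested.

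The 64 members held 61610 of 51238250 UMIs, 0.120% or 12.02 UMIs per 10000, over 2335 cells with 1002 to 129719 UMIs each and a median of 19078. With 1 library and no replicate no test was possible. The 95% intervals given in parentheses are exact Poisson intervals for levels, exact conditional ones for log2 ratios and exact binomial ones for shares. They cover counting error only, and cells of 1 library are not replicates of a condition. In each comparison a gene counts as higher or lower at 2-fold or more, and the share of all measured genes that did so is given beside the members. That share is over 12353 genes, or 12290 to 12350 in comparisons of marker-free cells, where genes with no UMI in either group drop out. Copies of 1 histone type are near-identical in sequence, so the split of reads between copies is uncertain.

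UMIs were concentrated in few members. Hist1h2ap, a core H2A gene (ENSMUSG00000094777), had 11485 UMIs, linker Hist1h1b (ENSMUSG00000058773) 9804, linker Hist1h1e 8419, H2B gene Hist1h2bc (ENSMUSG00000018102) 6335 and H2A gene Hist1h2ae 5430. These 5 genes gave 67.3% of all member UMIs. The next were linker Hist1h1c with 2972, H4 gene Hist1h4d with 1985, linkers Hist1h1d with 1472 and Hist1h1a with 1225, H4 gene Hist1h4h with 1148, H3 gene Hist1h3c with 1147 and H2A gene Hist2h2ac with 1060. By type, H1 gave 38.8% of member UMIs, H2a 33.1%, H2b 14.6%, H4 7.96% and H3 5.49%. The testis-specific members were near or at 0, with 3 UMIs of Hist1h1t, 1 of Hist1h2aa and 0 of Hist1h2ba.

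The total level was higher in cells with more UMIs of each of 3 cell cycle markers, with the largest ratio for Mki67. Cells were binned by their own UMIs of Pcna, the DNA polymerase clamp, Mki67, a protein of dividing cells that coats mitotic chromosomes, and Ccnb1, the mitotic cyclin B1. Over Pcna bins of 0, 1-4 and 5+ UMIs, with 1253, 950 and 132 cells, the level was 8.91, 13.2 and 17.5 per 10000. Over the same Mki67 bins, with 989, 663 and 683 cells, it was 4.84, 5.42 and 20.1. Over Ccnb1 bins, with 1721, 410 and 204 cells, it was 7.30, 20.3 and 16.7, highest in the middle bin. The log2 ratio of 5+ to 0 cells was 0.97 (0.94 to 1.01) for Pcna, 2.05 (2.02 to 2.09) for Mki67 and 1.19 (1.16 to 1.22) for Ccnb1. Cells with 5+ UMIs of a marker were deeper, with medians of 36878, 31585 and 38213 UMIs against 12655, 12538 and 15481 in cells with 0. Among cells of 10000 to 40000 UMIs alone the ratios were 1.19, 2.40 and 1.46. As a mean over cells, each weighted alike, they were 0.63, 1.77 and 0.71.

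**Figure D1:**
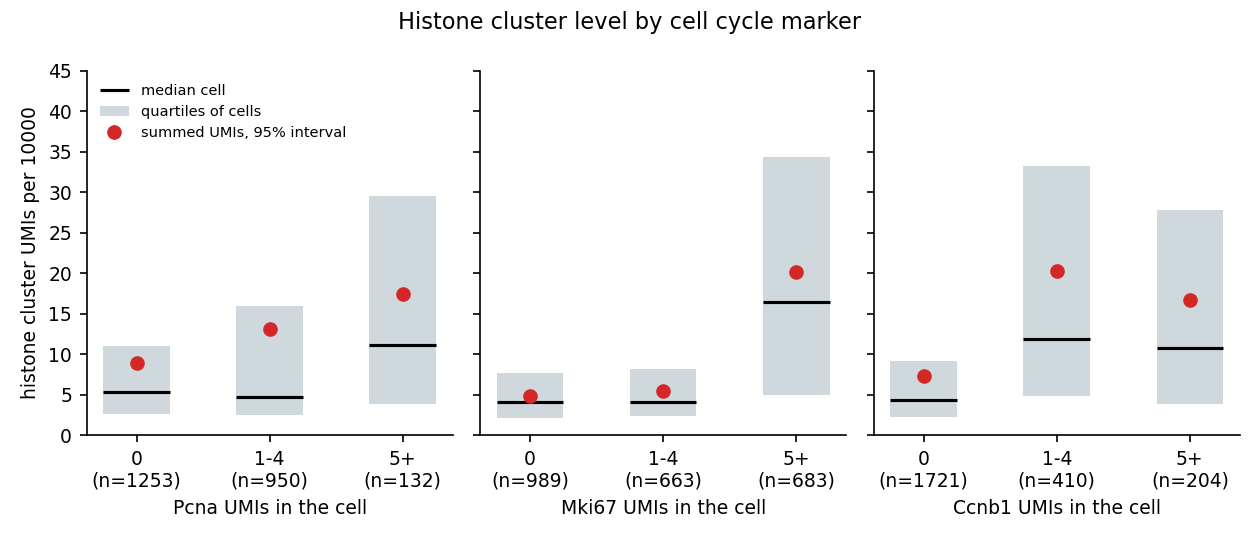
Histone cluster UMIs per 10000 (vertical axis) in cells with 0, 1-4 and 5+ UMIs of Pcna, Mki67 and Ccnb1. Red points are summed UMIs with 95% Poisson intervals, which are smaller than the points, black lines the median cell and grey bars the span from the lower to the upper quartile of cells; the median cell stood at 4.07 with 0 Mki67 UMIs and at 16.5 with 5+.

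Single cells within a bin differed widely. In Pcna 5+ cells the level per cell ran from 0.528 to 82.7, with a median of 11.1. In Mki67 5+ cells it ran from 0.387 to 278, with a median of 16.5. After thinning each cell to 5000 UMIs, which left out 380 shallower cells, at least 10 histone UMIs were found in 11.2% of Pcna 0 cells and 38.6% of Pcna 5+ cells. The same thinned share was 2.91% with 0 Mki67 UMIs, 4.96% with 1-4 and 44.8% (41.0 to 48.7) with 5+, and the unthinned shares at the same level were 3.54%, 8.45% and 44.4%.

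High Pcna without high Mki67 did not go with a high histone level. In Pcna 5+ cells the level was 3.41 (2.64 to 4.33) with 0 Mki67 UMIs, over 7 cells, and 4.51 (4.11 to 4.93) with 1-4, over 32 cells. It was 21.3 (20.8 to 21.7) in the 93 cells with 5+ UMIs of both. Among Mki67 5+ cells, those with 0 Pcna UMIs still stood at 16.1 and those with 1-4 at 21.4. Across Ccnb1 the Mki67 5+ cells stood at 17.7 with 0 UMIs, 24.2 with 1-4 and 16.8 with 5+. The highest level of all combinations of Mki67 5+ with a Pcna and a Ccnb1 bin, 26.9 (26.2 to 27.6), was in the 44 cells with 5+ Pcna and 1-4 Ccnb1 UMIs.

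Members were higher in marked cells far more often than measured genes in general. In Pcna 5+ against 0 cells, 22 of 49 members were at least 2-fold higher, against 2.82% of all measured genes. At least 3-fold higher were 8 members, for which the share of all measured genes is not given. In Mki67 5+ against 0 cells 40 of 49 members were at least 2-fold higher, against 4.52%, and in Ccnb1 5+ against 0 cells 30 of 49, against 2.82%. All 22 members of the Pcna comparison were also among the 40, 19 were higher in all 3 comparisons and 9 in none. These comparisons use overlapping cells. The members' median log2 ratio was 0.81 for Pcna, 2.29 for Mki67 and 1.23 for Ccnb1, beside -0.08, -0.05 and -0.05 over all measured genes. By type in the Mki67 comparison, 11 of 13 H2a, 11 of 13 H2b, 9 of 11 H3, 5 of 7 H4 and 4 of 5 linker members were higher. Hist1h members were higher in 36 of 40 cases and Hist2h members in 4 of 9.

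The 12 members with most UMIs split by how steeply they followed the markers. Hist1h2ap stood at 0.233, 0.603 and 4.38 UMIs per 10000 over the Mki67 bins, a log2 ratio of 4.23 (4.07 to 4.40). Hist1h1b stood at 0.181, 0.448 and 3.79, a ratio of 4.38 (4.203 to 4.570). Hist1h2ae stood at 0.114, 0.251 and 2.09, a ratio of 4.19 (3.96 to 4.43). The H3 gene Hist1h3c was as steep, with 0.0217, 0.0449 and 0.447 and a ratio of 4.37 (3.84 to 4.94). Hist2h2ac had a ratio of 2.70, Hist1h4d of 2.21 and Hist1h4h of 2.06. Hist1h2bc went the other way, at 1.48, 1.33 and 1.04, a ratio of -0.50 (-0.59 to -0.42).

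Over the Pcna bins the ratios of Hist1h2ap and Hist1h1b were smaller, and that of Hist1h2bc was larger in size. Hist1h2ap stood at 1.25, 2.61 and 3.96 per 10000, with a log2 ratio of 1.67 (1.59 to 1.75). Hist1h1b stood at 0.914, 2.33 and 3.41, with a ratio of 1.90 (1.807 to 1.996). Hist1h2bc stood at 1.62, 1.07 and 0.684, with a ratio of -1.24 (-1.40 to -1.09). The highest Pcna ratios of all measured members were those of Hist1h1a at 2.10 (1.83 to 2.37), the H3 gene Hist1h3i at 1.94 and Hist1h1b. The lowest were those of the H3 gene Hist2h3c2 at -2.63, which rests on 2 UMIs in Pcna 5+ cells, Hist1h2bc, and the H3 gene Hist2h3c1 at -1.20. In 48 of 49 members the log2 ratio was larger for Mki67 than for Pcna. Of the 49 Pcna ratios, 28 had an interval above 0, 4 below 0 and 17 across 0.

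Other genes of histone supply and of the cell cycle, from 5 named lists, were set beside the members. Of 25 DNA replication genes all 25 were higher in Pcna 5+ cells, with a median log2 ratio of 2.05, as Ccne1 (cyclin E1) at 3.25 and the replication licensing factor Cdc6 at 3.18. In Ccnb1 5+ cells 1 of the 25 was higher and 10 lower, with a median of -0.40, where 30 members were higher. Of 17 genes of G2 and mitosis 1 was higher in Pcna 5+ cells, Top2a (DNA topoisomerase) at 1.18, and all 17 were higher in Mki67 5+ and in Ccnb1 5+ cells, with medians of 4.46 and 3.42. Of 13 measured genes of histone mRNA processing, 1 was higher in Pcna 5+ cells and none in the Mki67 and Ccnb1 comparisons. That 1 was Slbp, which binds the histone stem-loop, at 1.28 (1.16 to 1.41) for Pcna, 0.47 for Mki67 and -0.68 for Ccnb1. Npat, the cluster genes' coactivator, stood at 0.63 for Pcna and 0.16 for Mki67.

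Histone chaperones and histone genes other than Hist1h and Hist2h passed 2-fold less often than the members, by count. Of 19 chaperone and assembly genes 6 were higher in Pcna 5+ cells, among them Asf1b at 2.24, which hands H3 and H4 to the assembly machinery, and Chaf1a at 2.09, a subunit of the factor that places them on new DNA. Of the same 19, 5 were higher for Mki67 and 1 for Ccnb1. Of 14 measured genes listed as replication-independent histones none was higher for Pcna and 3 were for Mki67. These were Cenpa, the centromere's H3, at 3.93, H2afx, the H2A variant marked at DNA breaks, at 2.95 and H2afz at 1.57. The list includes Hist3h2a and Hist3h2ba, whose symbols place them in another histone cluster, and whether each listed gene is free of S phase was not tested. H3f3a and H3f3b, which encode the replacement histone H3.3, stood at 0.08 and 0.25 for Mki67.

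In all, 12 members kept over 0.5 times their Pcna 5+ level in marker-free cells, the 439 cells with no UMI of Pcna, Mki67 or Ccnb1 and at least 5000 UMIs. The 12 of 49 stand beside 92.7% of all measured genes, so what set the members apart was how few stayed up. Measured against Mki67 5+ cells 10 of 49 did, beside 93.5% of all measured genes, and these 10 were all among the 12. Within tags 3 and 4, with 32 marker-free and 29 Pcna 5+ cells, the count was 11, and 30 if members with no UMI in the marker-free cells are taken at 3 counts and counted as held. The share of all measured genes within these tags is not given, so these counts cannot be read against it. The whole level was 5.23 (5.061 to 5.395) in marker-free cells, whose median depth was 13865 UMIs. Of the 37 members below 0.5 times, 25 had an interval wholly below it. At 0.1 times or less stood 16 of the 49, called marker-linked here. Among them were Hist1h2ap, Hist1h1b, Hist1h2ae, Hist1h1a and Hist1h3c. Hist1h1e lay just outside, at 0.492 times, and Hist1h2ag just inside, at 0.573.

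**Figure D2:**
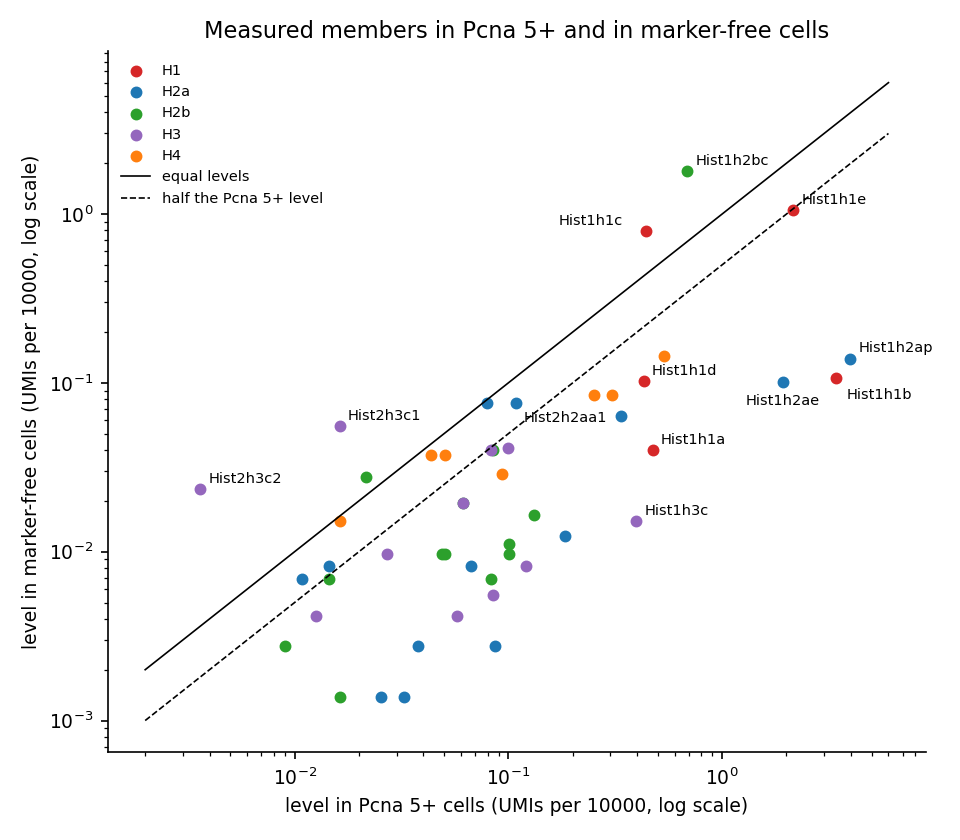
Level of each of the 49 measured members in marker-free cells (vertical, UMIs per 10000, log scale) against Pcna 5+ cells (horizontal, log scale), coloured by histone type. The solid line marks equal levels and the dashed line 0.5 times; Hist1h2bc, Hist1h1c, Hist2h3c1, Hist2h3c2 and the unlabelled Hist2h2be lie above equality, and Hist1h2ap, Hist1h1b, Hist1h2ae, Hist1h3c and Hist1h1a far below.

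The held members were of every type, and 6 of 9 measured Hist2h members were among them against 6 of 40 Hist1h members. Hist1h2bc stood at 1.80 per 10000 in marker-free and 0.684 in Pcna 5+ cells, 2.63 times as high. Hist1h1c stood at 0.795 and 0.440, 1.80 times as high. Hist2h3c1 stood at 0.0552 and 0.0162, 3.40 times as high on 40 and 9 UMIs, and Hist2h3c2 at 6.50 times on 17 and 2 UMIs. Hist2h2be, an H2B gene, stood at 1.27 times on 20 and 12 UMIs, with a log2 interval across 0 (-0.75 to 1.52). The H2A gene Hist1h2ac stood at 0.956 times on 55 and 44 UMIs. For these 6 the interval lay wholly above 0.5 times. Chga-high cells were 155 of the 439 marker-free cells and gave 2001 of their 3787 histone UMIs. In the 250 marker-free cells that were not Chga-high, goblet or immune-marked, Hist1h2bc stood at 1.24, still above its Pcna 5+ level. Hist1h1c there, on 125 UMIs, stood below its Pcna 5+ level. Held members were not counted in those 250 cells alone.

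The other 6 held members have intervals that reach below 0.5 times. Hist1h4j stood at 0.934 times, Hist2h4 at 0.860, Hist1h4c at 0.737, Hist2h2aa1 at 0.701, Hist2h2ab at 0.637 and Hist1h2ag at 0.573. All 6 rest on at most 60 UMIs in each group, and the last 2 on 5 and 6 UMIs in marker-free cells. The most abundant marker-linked members were at small fractions of their Pcna 5+ level. Hist1h2ap stood at 0.139 per 10000 in marker-free cells and 3.96 in Pcna 5+ cells, and Hist1h2ae at 0.101 and 1.93. For 1 UMI of Hist1h2ap there were 12.9 (10.5 to 15.9) of Hist1h2bc in marker-free cells and 0.173 (0.154 to 0.193) in Pcna 5+ cells. Hist1h2ae kept closer to Hist1h2ap, at 0.723 (0.527 to 0.986) and 0.486 (0.451 to 0.523) UMIs for each.

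Over the 1450 cells of 10000 to 40000 UMIs the levels per cell of Hist1h2ap and Hist1h1b had a Spearman rho of 0.64, and those of Hist1h2ap and Hist1h2bc one of -0.12. The points share 1 library and each cell's depth, and the values are a description across cells.

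The linker share of member UMIs was nearly the same in Pcna 5+ and in all marker-free cells pooled, while the linker genes behind it changed. Linker UMIs were 37.3% (36.6 to 38.0) of member UMIs in Pcna 0 cells, 39.4% (38.5 to 40.4) in Pcna 5+ cells and 40.2% (38.6 to 41.7) in marker-free cells. The marker-free share pools unlike cells. It was 44.6% (42.4 to 46.8) in marker-free Chga-high cells and 44.3% (38.7 to 50.1) in marker-free goblet cells. In the other marker-free cells without immune markers it was 33.3% (31.0 to 35.7). The difference of Pcna 5+ from Pcna 0 cells was 2.14 percentage points (0.93 to 3.35), and -1.82 (-3.67 to 0.04) within tags 1 and 2. From Pcna 0 to Pcna 5+ cells core UMIs went from 5.58 to 10.6 per 10000 and linker UMIs from 3.32 to 6.90, log2 ratios of 0.92 (0.88 to 0.97) and 1.05 (1.00 to 1.11). For Mki67 the core and linker ratios were 2.08 (2.03 to 2.13) and 2.01 (1.95 to 2.07).

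Of the linkers, 5 genes were measured and took 3 patterns. Hist1h1b and Hist1h1a were marker-linked. In marker-free against Pcna 5+ cells they stood at 0.106 against 3.41 and 0.0400 against 0.473 per 10000. Hist1h1c did not follow Mki67, at 0.628, 0.440 and 0.634 over its bins, a log2 ratio of 0.01 (-0.11 to 0.14). Hist1h1e and Hist1h1d lay between, at 0.982, 0.874 and 2.48 and at 0.0968, 0.133 and 0.489, with ratios of 1.34 (1.25 to 1.42) and 2.34 (2.08 to 2.60). In Pcna 5+ cells Hist1h1b gave 49.5% of linker UMIs, Hist1h1e 31.1% and Hist1h1c 6.38%. In marker-free cells Hist1h1b gave 5.06%, Hist1h1e 50.2% and Hist1h1c 37.9%.

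**Figure D3:**
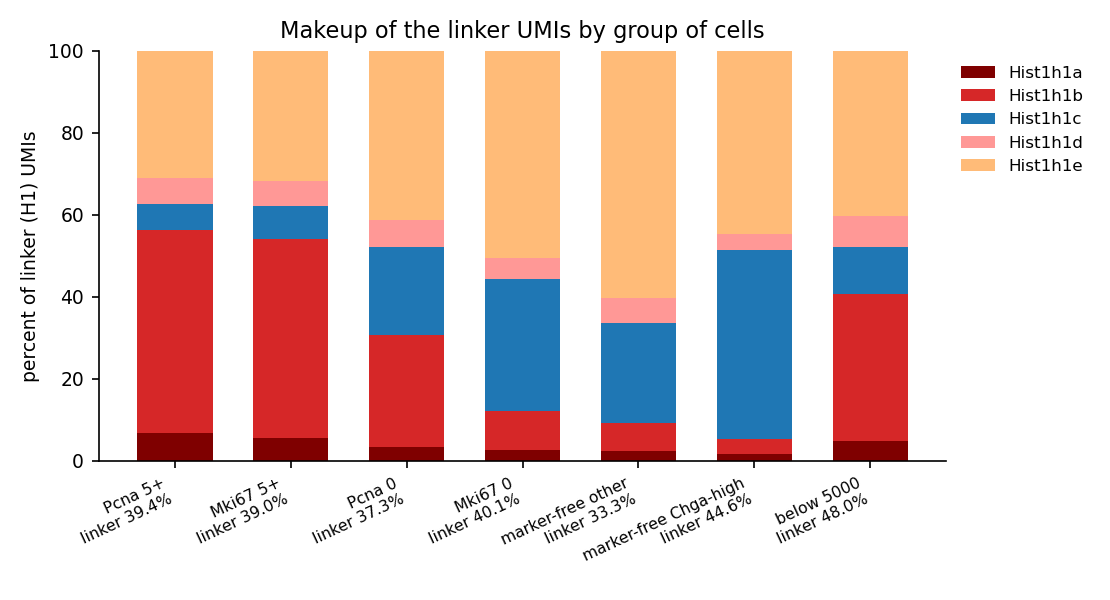
Share of linker (H1) UMIs from each of 5 linker genes, in percent, in 7 groups of cells, with the linker share of all member UMIs under each bar. Hist1h1b gives 49.5% in Pcna 5+ cells and 3.47% in marker-free Chga-high cells, while Hist1h1c gives 6.38% and 46.1%.

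The promoters of 4 linker genes are shown because their genes differ this much in use while part of their letters is shared. Each is the 160 bases before the RefSeq start (GRCm38.p6), read 5′ to 3′ on the gene's strand. Capitals mark the motif CCAAT, the TATA box letters TATAAA and the linker gene element AAACACA, on either strand.
Hist1h1b, chr13:21780626-21780785, minus strand: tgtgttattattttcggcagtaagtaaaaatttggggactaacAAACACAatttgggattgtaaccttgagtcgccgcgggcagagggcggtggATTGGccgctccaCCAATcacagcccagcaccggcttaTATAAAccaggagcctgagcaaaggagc
Hist1h1a, chr13:23763508-23763667, plus strand: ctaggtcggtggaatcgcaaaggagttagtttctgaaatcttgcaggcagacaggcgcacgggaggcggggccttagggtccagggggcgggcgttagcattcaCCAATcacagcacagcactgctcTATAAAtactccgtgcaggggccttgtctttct
Hist1h1e, chr13:23622559-23622718, minus strand: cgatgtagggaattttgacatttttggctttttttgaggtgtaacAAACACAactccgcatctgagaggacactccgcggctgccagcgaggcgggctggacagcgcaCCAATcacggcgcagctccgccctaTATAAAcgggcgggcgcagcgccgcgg
Hist1h1c, chr13:23738647-23738806, plus strand: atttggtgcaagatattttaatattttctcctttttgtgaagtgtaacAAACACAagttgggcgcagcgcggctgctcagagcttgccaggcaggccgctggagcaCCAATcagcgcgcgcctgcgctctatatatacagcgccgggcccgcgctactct
CCAAT was found in all 4, beginning 53, 56, 52 and 54 bases before the start for Hist1h1b, Hist1h1a, Hist1h1e and Hist1h1c, with a further match in Hist1h1b at 66. TATAAA was found at 28, 33 and 27 bases for Hist1h1b, Hist1h1a and Hist1h1e. The search took exact letters only, and Hist1h1c, without a match, holds the similar run tatatata. AAACACA, which was added to the search after the values were seen, was found at 117, 115 and 112 bases for Hist1h1b, Hist1h1e and Hist1h1c. The marker-linked Hist1h1b and the intermediate Hist1h1e thus hold the same 3 motifs at nearly the same places. A match is a description of letters and not a binding site.

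Promoters were found for 59 of the 64 members. In the 250 bases before the start, on both strands, CCAAT was in 49 of 59 and in 33.8% of all 32817 promoters, and TATAAA in 28 of 59 and 12.4%. The octamer ATTTGCAT was in 6 of 17 H2a and 6 of 15 H2b promoters, in 0 of the 27 H1, H3 and H4 promoters, and in 1.60% of all. AAACACA was in 5 of 6 linker promoters, 4 of 53 core promoters and 6.25% of all. TTTCGCGC was in 7 of 59 and 0.256% of all, and TTTGGCGC in 0 of 59 and 0.42%. No searched motif lies within another.

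The held Hist2h3c1 and Hist2h3c2 are shown with the marker-linked Hist1h2ap. The H3 pair shares a run of 141 bases, in which none of the searched motifs was found.
Hist2h3c1, chr3:96246525-96246684, plus strand: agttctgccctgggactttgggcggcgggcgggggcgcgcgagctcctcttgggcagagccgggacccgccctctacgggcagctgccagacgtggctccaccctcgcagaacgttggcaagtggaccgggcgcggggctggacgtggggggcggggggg
Hist2h3c2, chr3:96239128-96239287, minus strand: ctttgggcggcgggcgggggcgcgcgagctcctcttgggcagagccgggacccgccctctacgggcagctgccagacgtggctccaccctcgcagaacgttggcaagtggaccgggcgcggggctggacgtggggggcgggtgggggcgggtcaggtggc
Hist1h2ap, chr13:21833476-21833635, minus strand: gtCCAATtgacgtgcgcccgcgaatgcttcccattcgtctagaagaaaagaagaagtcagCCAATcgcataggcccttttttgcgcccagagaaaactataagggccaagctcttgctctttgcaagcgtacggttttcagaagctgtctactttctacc
Capitals in Hist1h2ap mark CCAAT, at 158 and 100 bases before the start. Its symbol matches more than 1 RefSeq entry, and the entry that no other member matched (H2ac24) is shown. Counts of Hist2h3c1 and Hist2h3c2 may be split between near-identical copies.

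Chga-high cells, the 366 cells with at least 20 Chga UMIs, had nearly the same total as other cells but other members behind it. The level was 11.3 (11.0 to 11.5) in them and 12.13 (12.03 to 12.23) in the other 1969 cells, a log2 ratio of -0.10 (-0.14 to -0.07). Among cells with 0 Pcna UMIs the ratio was 0.34 (0.29 to 0.39), and within tags 3 and 4, with 9 Chga-high cells, 0.28. The median Chga-high cell stood at 9.37 and the median other cell at 4.46, with median depths of 12142 and 20179 UMIs. The 12 enteroendocrine markers summed to 675 UMIs per 10000 in Chga-high cells and 30.5 in the others, with Chga itself in both the rule and the list. Of 49 members 6 were at least 2-fold higher, beside 17.6% of all measured genes, and 15 at least 2-fold lower, beside 7.17%. The share higher lay below that of all genes and the share lower above it. All 6 that were higher were held members: Hist2h3c2 at 2.87, Hist2h3c1 at 2.47, Hist1h1c at 1.69, Hist1h2bc at 1.41, Hist2h2aa1 at 1.26 and Hist2h4 at 1.06. This overlap is in part built in. Held members were called in the 439 marker-free cells, of which 155 were Chga-high and gave 2001 of 3787 histone UMIs. Of the 15 that were lower, 12 were among the 22 that were higher in Pcna 5+ cells, as Hist1h2ap at -1.14, Hist1h1b at -1.20 and Hist1h2ae at -1.25.

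Among marker-free cells the Chga-high cells stood far above the rest. The level was 10.0 (9.57 to 10.4) in 155 marker-free Chga-high cells, 4.23 (3.77 to 4.73) in 37 marker-free goblet cells and 3.36 (3.20 to 3.53) in 250 other marker-free cells without immune markers. Over 0-4, 5-19, 20-99 and 100+ Chga UMIs the marker-free level was 3.33, 5.64, 6.59 and 10.8, over 268, 15, 35 and 120 cells. The 5-19 and 20-99 intervals overlap (4.60 to 6.85 and 5.79 to 7.48). Median depths of the 4 groups were 16572, 11949, 10154 and 10955 UMIs. Within tags 1 and 2 alone the levels were 10.0 in 138 Chga-high and 3.63 in 95 other marker-free cells.

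Of 49 members 25 were at least 2-fold higher in marker-free Chga-high cells than in the other marker-free cells, beside 24.8% of all measured genes. Of the 25, 15 had a log2 interval above 0, 7 held members and 8 that are not held. The held call itself used these Chga-high cells. Hist1h2bc stood at 3.44 per 10000 in marker-free Chga-high cells and 1.24 in other marker-free cells, a log2 ratio of 1.47 (1.31 to 1.64). Hist1h1c stood at 2.06 and 0.272, a ratio of 2.92 (2.63 to 3.22). Hist1h1e stood at 1.98 and 0.674, a ratio of 1.56 (1.34 to 1.78), which brought it near its level of 2.14 in Pcna 5+ cells. Hist2h2aa1 stood at 0.190 and 0.0217, a ratio of 3.13 (2.10 to 4.30), on 38 and 10 UMIs. All 5 linkers were higher, the marker-linked ones too. Hist1h1a stood at 0.0800 and 0.0283 on 16 and 13 UMIs, 2.83 times as high, with a log2 interval of 0.35 to 2.68. Hist1h1b stood at 0.155 and 0.0761, a log2 ratio of 1.03 (0.28 to 1.77), and Hist1h1d at 0.180 and 0.0696, a log2 ratio of 1.37 (0.64 to 2.10). Hist1h2ap did not differ beyond counting error, at 0.170 and 0.120, with an interval of -0.16 to 1.15, and nor did Hist1h2ae, at 0.100 in both (-0.84 to 0.79).

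**Figure D4:**
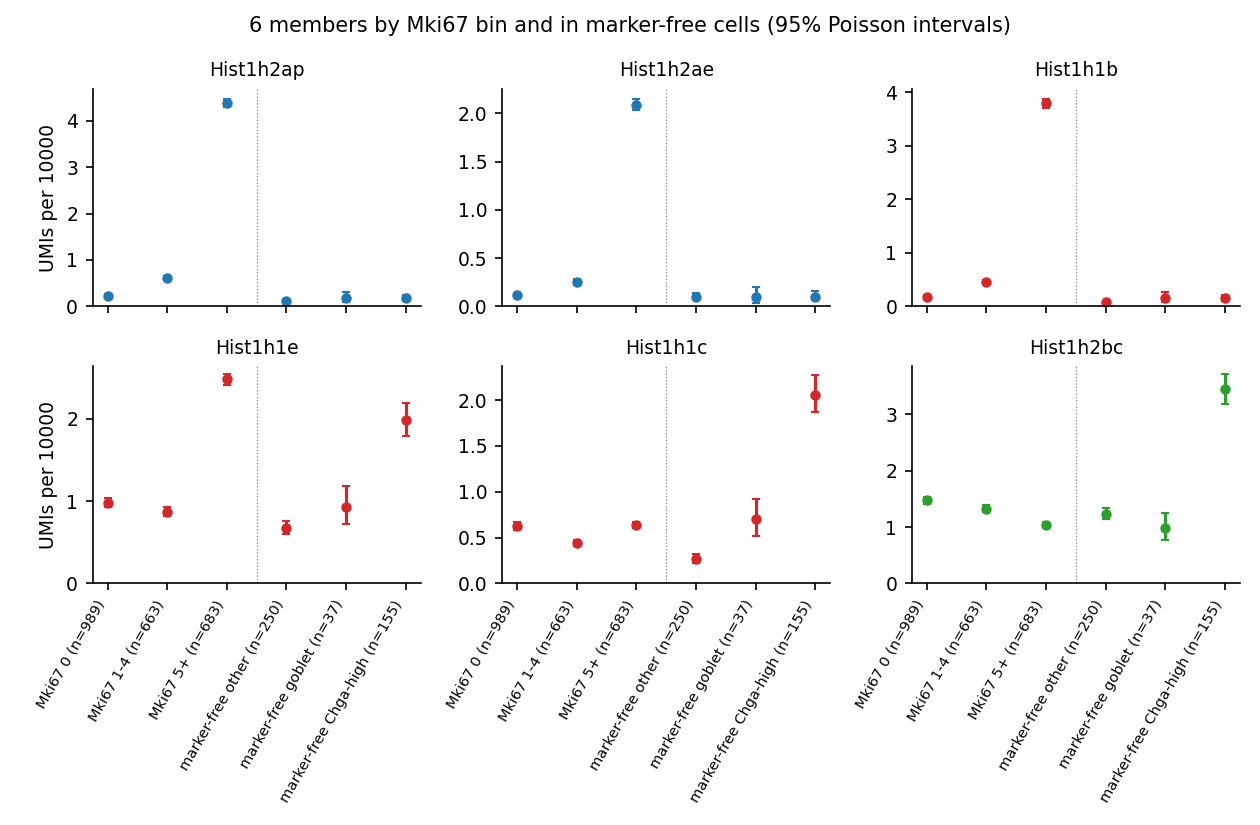
UMIs per 10000 (vertical) of 6 members over Mki67 bins and in 3 kinds of marker-free cells, with 95% Poisson intervals and the number of cells under each group. Hist1h2ap, Hist1h2ae and Hist1h1b are high in Mki67 5+ cells alone of the 6 groups, Hist1h1c and Hist1h2bc are highest in marker-free Chga-high cells, and Hist1h1e is high in both.

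Of the 14 measured genes listed as replication-independent histones 4 were at least 2-fold higher in Chga-high than in other cells, beside the 17.6% of all measured genes. These were H2afy2, a macroH2A gene, at 2.69, Hist3h2ba at 2.38, the linker variant H1fx at 1.73 and Hist3h2a at 1.70. Of the 25 DNA replication genes none was higher and 11 were lower, beside 7.17% of all measured genes, and of the 17 G2 and mitosis genes none was higher and 4 were lower.

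Among Chga-high cells too the level was highest with 5+ Mki67 UMIs, at 9.78, 8.28 and 15.7 over bins of 231, 83 and 52 cells, a smaller step than over all cells. The median depth of the 52 cells was 35154 UMIs and that of the 231 was 9914. The part of mixed droplets in the 52 cells was not tested.

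Goblet cells, the 129 cells with at least 0.5% of UMIs from Agr2, Fcgbp and Muc2 (mucus cell genes), had a slightly lower level. It was 10.1 (9.75 to 10.5) against 12.2 (12.1 to 12.2) in all others, a log2 ratio of -0.27 (-0.32 to -0.22). The direction turned within tags 1 and 2, at 0.26 (0.18 to 0.34), with 45 goblet cells. Of 49 members 3 were at least 2-fold lower, the H2B genes Hist1h2bn at -2.33 and Hist1h2bl at -1.71 and the H3 gene Hist1h3f at -1.21, and none was higher. The background share for lower genes was 10.7%, and the members' count lay below it. These 3 were named after their values were seen and are given without UMI counts or intervals. Goblet cells held 3150585 of all 51238250 UMIs, so the ratio of a sparse member there can rest on few UMIs. Over the Mki67 bins goblet cells stood at 4.33, 5.15 and 19.2, over 58, 40 and 31 cells, close to the levels of all cells in the same bins. There was an overlap of 15 cells between the goblet and Chga-high classes.

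Cells below 5000 UMIs, 380 in number, had the highest class level, and 26 of them held 56.5% of the class's histone UMIs. The level was 22.5 (21.6 to 23.5) against 11.8 (11.7 to 11.9) in deeper cells, a log2 ratio of 0.93 (0.87 to 0.99). Of 49 members 32 were at least 2-fold higher, beside 15.3% of all measured genes. None of the 25 DNA replication genes and none of the 17 G2 and mitosis genes was higher, with medians of -0.52 and -0.54. Linker UMIs were 48.0% (45.9 to 50.1) of member UMIs, the largest share of the classes named in the rule. All 5 measured linkers were higher, with log2 ratios of 1.05 for Hist1h1b to 1.57 for Hist1h1d.

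Of the 380 cells, 26 stood at 100 or more histone UMIs per 10000 and held 56.5% of the class's histone UMIs. These cells had 1006 to 3786 UMIs and a summed level of 194, up to 467 in a single cell, and 53.0% of their histone UMIs were from linkers. Mki67 was found in 21 of them, immune marks in 0, and mitochondrial UMIs were 6.71% of their total. By hashtag 7 belonged to tags 1 and 2, 0 to tags 3 and 4, and 19 to neither pair. Without the 26 cells the class stood at 10.5, below the deeper cells, with a log2 ratio of -0.17 (-0.27 to -0.08). Of the 354 cells left, 122 were immune-marked, a set with a low histone level. The level without both the 26 and the immune-marked cells was not computed. The median cell of the 258 shallow cells without immune marks, the 26 among them, stood at 10.5 per 10000. The median deeper cell stood at 4.96. Within tags 3 and 4 the ratio was -0.91 (-1.11 to -0.71). Immune markers summed to 5.76 UMIs per 10000 over all cells of tags 3 and 4 and to 0.419 over those of tags 1 and 2. What set the ratio within tags 3 and 4 was not tested. Among cells of 5000 UMIs or more 2 reached 100 per 10000. The level of 100 was chosen after the values were seen.

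**Figure D5:**
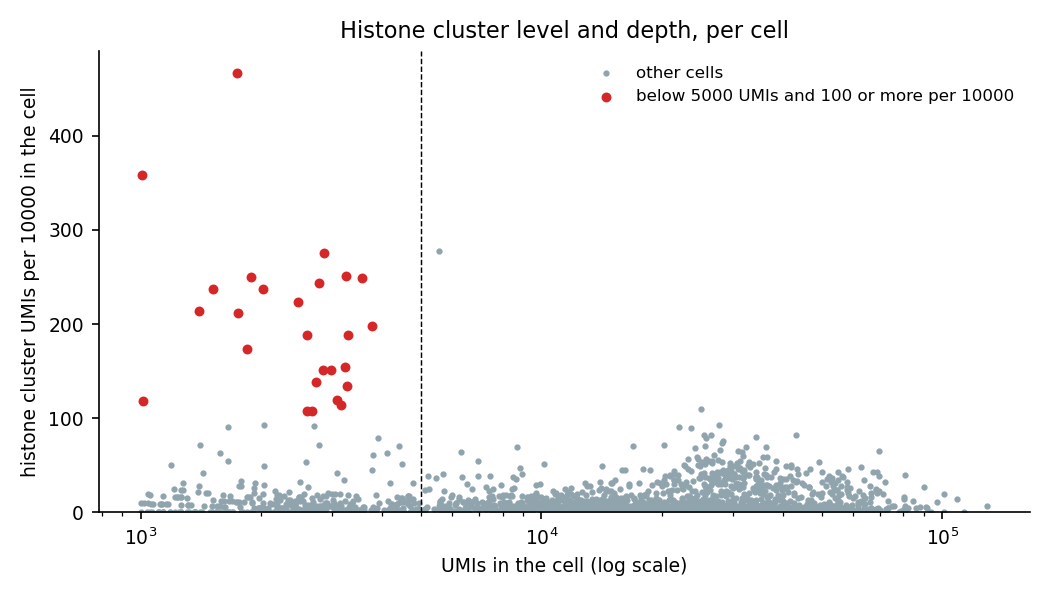
Histone cluster UMIs per 10000 in each cell (vertical) against its total UMIs (horizontal, log scale), with a dashed line at 5000 UMIs. The 26 red cells below 5000 UMIs stand at 108 to 467 per 10000, and all other cells but 2 lie below 100.

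Immune-marked cells were many among the shallow cells, 122 of 380. The 10 immune markers, all measured, summed to 58.3 UMIs per 10000 in cells below 5000 UMIs and 0.169 in deeper cells. The histone level was 4.46 (3.77 to 5.25) in the immune-marked shallow cells and 31.3 (30.0 to 32.7) in the other 258. The shallow cells with 0 Mki67 UMIs stood at 11.5, those with 1-4 at 37.6 and the 14 with 5+ at 100.2.

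Hashtag pairs and the sex-linked transcripts divided the cells further. The level was 11.7 in 987 cells of tags 1 and 2, 10.8 in 411 cells of tags 3 and 4 and 12.9 in 937 cells of neither pair, and in Mki67 5+ cells 18.9, 16.3 and 23.6. The sources used here do not say which tags mark which sort. Though the labels name 1 mouse, 1744 cells showed Xist (3 or more UMIs) with Y-linked genes at 0, and 252 showed Y-linked genes with at most 2 UMIs of Xist. From 0 to 5+ Mki67 UMIs the level went from 4.01 to 20.3 in the first set and from 6.63 to 19.6 in the second. Among marker-free cells the first set stood at 4.20 and the second at 7.30, with enteroendocrine markers at 217 and 677 UMIs per 10000.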

How the data were processed

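The authors deposited a table of raw UMI counts per gene and cell for 2335 kept cells, used here as deposited, and raw hashtag counts for the 4 tags. Per the submitters' processing notes Cell Ranger and Seurat were used, and the build named there is the human GRCh38 while the gene identifiers are mouse, so no gene coordinates are given from the files. The sources used here do not give the filter that kept these cells, and no doublet caller was run. Levels are summed UMIs per 10000 UMIs of the cells summed. Cells had 1002 to 129719 UMIs, and counts of members set the precision, with 95% intervals from scipy 1.17.1 (numpy 2.4.6, pandas 2.3.3, Python 3.11.15, figures matplotlib 3.10.9). A sum of 0 was set at 3 counts in ratios, which bounds the ratio on 1 side, so a gene with no UMI in the first group was not counted as higher or held, nor one with none in the second as lower. This counting rule was set after values were seen. The calculation was tested on simulated data. Cells were called immune-marked with at least 3 UMIs and 5 per 10000 of the immune list, and were given a tag pair when its counts were at least 3 times the other pair's.

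Cells of 1 library are not replicates of a condition, so no p-value was computed. Values printed by name are those of the 12 members with most UMIs, every measured linker, every held member, the testis-specific Hist1h1t, Hist1h2ba and Hist1h2aa, the 3 highest and 3 lowest Pcna ratios and, chosen after their values were seen, the 3 members lower in goblet cells. The members, the lists and the comparisons were chosen with earlier results of these data known. Marker lists of immune, enteroendocrine, goblet, Paneth, enterocyte, stem and tuft cells summed to 1.30, 112, 33.2, 131, 10.2, 51.9 and 0.248 UMIs per 10000 over all kept cells, and the germ cell list to 3 UMIs in all. Promoters came from RefSeq (GRCm38.p6), matched by symbol. Alternatives covered depth, tags, immune-marked cells, bins, thresholds, the denominator and the mean over cells.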

Additional observations from a re-analysis of the deposited data

How the results depend on the processing

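Of 82 alternatives, 34 stayed within the reported interval (or within 1.5 times for counts), 40 moved and 8 changed sign. The cause was not tested. No value has a test, and with 1 library depth and cell class cannot be told apart fully. No paired analysis was possible because there is 1 gene expression library and no result comes from a test. The planned upper bin of 10+ Pcna UMIs held 3 cells and was not run. Additions made after seeing the data are the Pcna ratio within Mki67 5+ or 0 cells, the Chga-high ratio in marker-free cells, the shallow cells without the 26 richest, Mki67 5+ as the reference for held members, and members with no UMI counted as held at 3 counts within tags 3 and 4.

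The Pcna log2 ratio, 0.97 as reported, was 1.19 in cells of 10000 to 40000 UMIs, 0.75 in tags 1 and 2, 1.44 in tags 3 and 4, 0.63 as a mean over cells, 1.39 with 2 or more marker UMIs per 10000 as the upper bin, 0.85 without the 5 cells richest in histone UMIs per bin, 0.41 in Mki67 5+ cells and -0.72 in Mki67 0 cells.
The Mki67 ratio, 2.05, was 2.40 in cells of 10000 to 40000 UMIs, 2.10 without cells above 50000 UMIs, 1.67 in tags 1 and 2, 2.18 in tags 3 and 4, 1.77 as a mean over cells, 2.24 with 10+ as the upper bin and 2.18 with 2 or more marker UMIs per 10000 as the upper bin.
The Ccnb1 ratio, 1.19, was 1.46 in cells of 10000 to 40000 UMIs, 1.13 without cells above 50000 UMIs, 1.00 in tags 1 and 2, 0.71 as a mean over cells, 0.95 with 10+ as the upper bin, 1.11 with 2 or more marker UMIs per 10000 as the upper bin and 1.16 without the 5 cells richest in histone UMIs per bin.
The Chga-high ratio, -0.10, was -0.20 in cells of 10000 to 40000 UMIs, -0.17 without cells above 50000 UMIs, 0.28 in tags 3 and 4, -0.22 as a mean over cells, -0.14 with mitochondrial genes and members out of the denominator, 0.34 in cells with 0 Pcna UMIs and 1.55 in marker-free cells.
The goblet ratio, -0.27, was -0.55 in cells of 10000 to 40000 UMIs, -0.40 without cells above 50000 UMIs, 0.26 in tags 1 and 2, -0.35 in tags 3 and 4, -0.21 as a mean over cells and -0.37 in cells with 0 Pcna UMIs.
The ratio of cells below 5000 UMIs, 0.93, was 1.40 without immune-marked cells, 0.67 in tags 1 and 2, -0.91 in tags 3 and 4, 1.11 as a mean over cells, 1.13 in cells with 0 Pcna UMIs and -0.17 without the 26 richest shallow cells.
The linker difference, 2.14 percentage points, was 5.14 in cells of 10000 to 40000 UMIs, 3.98 without cells above 50000 UMIs, -1.82 in tags 1 and 2, 4.71 in tags 3 and 4 and 6.19 with 2 or more marker UMIs per 10000 as the upper bin.
The count of members higher for Pcna, 22, was 24 in cells of 10000 to 40000 UMIs, 19 without cells above 50000 UMIs, 20 in tags 1 and 2 and 31 in tags 3 and 4. It was 32 with 2 or more marker UMIs per 10000 as the upper bin, 30 at 1.5-fold and 8 at 3-fold. The shares of all measured genes under these settings are not given.
The count of held members, 12, was 14 in cells of 10000 to 40000 UMIs, 16 without cells above 50000 UMIs and 15 in tags 1 and 2. It was 10 with 1.5-fold and 18 with 3-fold as the cut. In tags 3 and 4 it was 11, and 30 there with members at 0 UMIs counted at 3 counts. The shares of all measured genes under these settings are not given.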
